A study of Mus musculus with 8 samples.

Results

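The genes described are 10 CC chemokine genes of marrow stroma: Ccl2, Ccl7, Ccl8, Ccl11, Ccl19, Ccl20, Ccl5, Ccl6, Ccl9 and Ccl21a. They were found as the rows of the deposited gene count matrix whose Ensembl identifier, without its version suffix, maps to one of these symbols. All 10 were found among 52636 genes, 7 of them were among the 16045 genes with enough counts to be tested, and 3 (Ccl11, Ccl20 and Ccl21a) had 0 counts in all 8 libraries. The counts come from bulk polyA RNA sequencing, as paired reads of 76 bp, of mesenchymal stem cells from mouse bone marrow that carry the leptin receptor (LEPR+), a kind of perivascular stromal cell. Both groups were C57BL/6 mice injected intravenously with 150 µg of protein once a week for 3 weeks. The control group (4 libraries) received HEL-Ig, an IgG1 against hen egg lysozyme, and the other group (4 libraries) the LTβR-Ig decoy, a soluble form of the lymphotoxin β receptor that binds its ligands. Marrow flushed from long bones was digested with collagenase IV, depleted of CD45+ and Ter119+ cells, sorted as living CD45- Ter119- CD31- CD144- LEPR+ cells and sorted again in the same way. The labels give no age. Whether a library holds the cells of 1 mouse or of a pool is not stated, so the p-values rest on the spread among libraries, and this may be technical.

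CC chemokines are small secreted proteins that direct the migration of leukocytes through receptors of the CCR family. In marrow, stromal chemokines such as CCL2 are known for inducing monocytes to leave for the blood, while CCL19 and CCL21 guide lymphocytes and dendritic cells in lymphoid tissue. The lymphotoxin β receptor, on stromal cells, activates the NF-κB pathways, and in lymphoid organs it is known to maintain the expression of the homeostatic chemokines. The comparison asks how the transcripts of these chemokines in LEPR+ cells differ when the receptor's ligands are captured.

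Of the 10 genes, 7 lie on chromosome 11 of mm10 and fall into 2 groups there. Ccl2 (chr11:82035571-82037453, plus strand), Ccl7 (chr11:82045712-82047525, plus strand), Ccl11 (chr11:82057823-82062955, plus strand) and Ccl8 (chr11:82115185-82116799, plus strand) follow one another, with 8258 bp between Ccl2 and Ccl7, 10297 bp between Ccl7 and Ccl11 and 52229 bp between Ccl11 and Ccl8. Ccl5 (chr11:83525778-83530518), Ccl9 (chr11:83572919-83578636) and Ccl6 (chr11:83587882-83593087), all on the minus strand, begin 1408978 bp after the end of Ccl8. Ccl19 (chr4:42754525-42756577, minus strand) and Ccl21a (chr4:42772860-42773993, minus strand) lie 16282 bp apart on chromosome 4, and Ccl20 lies alone on chromosome 1 (chr1:83116766-83119167, plus strand). Gene positions are from the GENCODE annotation of GRCm38, the assembly also called mm10.

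The bases before the transcription start were read for the members that RefSeq's promoter table for GRCm38.p6 holds, which are 6 of the 10: Ccl8, Ccl19, Ccl21a, Ccl20, Ccl6 and Ccl9. The 4 windows of 250 bases printed here show a monocyte-attracting member, a lymphoid member without counts and the neighbours Ccl6 and Ccl9, whose values differed in pattern. The RefSeq start of Ccl19 lies inside its longer GENCODE gene model, so its window is described but not printed. Each window runs 5′ to 3′ on the strand of the gene and ends at the base before the start. Capitals mark the matches, on either strand, to the NF-κB consensus or to the AP-1 motif TGANTCA. The windows are chr11:82114935-82115184 (plus strand) for Ccl8, chr1:83116516-83116765 (plus strand) for Ccl20, chr11:83593088-83593337 (minus strand) for Ccl6 and chr11:83578637-83578886 (minus strand) for Ccl9.
Ccl8: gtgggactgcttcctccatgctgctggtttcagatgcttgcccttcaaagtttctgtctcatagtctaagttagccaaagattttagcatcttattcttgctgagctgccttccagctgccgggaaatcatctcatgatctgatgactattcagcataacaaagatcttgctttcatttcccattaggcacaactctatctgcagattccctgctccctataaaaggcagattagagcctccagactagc
Ccl20: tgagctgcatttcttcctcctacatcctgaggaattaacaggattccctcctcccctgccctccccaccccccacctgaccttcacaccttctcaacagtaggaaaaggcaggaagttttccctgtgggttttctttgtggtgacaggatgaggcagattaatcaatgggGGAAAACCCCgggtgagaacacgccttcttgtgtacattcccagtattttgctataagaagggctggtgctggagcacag
Ccl6: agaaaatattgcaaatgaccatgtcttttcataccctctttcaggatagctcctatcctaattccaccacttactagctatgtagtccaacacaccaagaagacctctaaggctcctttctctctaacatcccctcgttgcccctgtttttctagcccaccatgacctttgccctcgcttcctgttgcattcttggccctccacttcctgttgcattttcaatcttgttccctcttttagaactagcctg
Ccl9: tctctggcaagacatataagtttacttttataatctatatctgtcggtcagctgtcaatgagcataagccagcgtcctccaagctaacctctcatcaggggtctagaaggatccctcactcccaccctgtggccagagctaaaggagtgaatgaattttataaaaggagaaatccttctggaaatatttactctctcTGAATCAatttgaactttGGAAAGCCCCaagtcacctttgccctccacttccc

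Of these 6 promoters, with the 50 bases after the start included in the search, Ccl20 and Ccl9 held a match to the NF-κB consensus. In Ccl20 it lay 80 to 71 bases before the start, on the minus strand of the window, and in Ccl9 35 to 26 bases before the start, also on the minus strand. Ccl9 had the AP-1 match as well, at 53 to 47 bases before the start, not overlapping the other. No window held the GAS element TTCNNNGAA, and Ccl8, Ccl19, Ccl21a and Ccl6 held none of the 3 motifs. The NF-κB consensus occurred in 8.46% of all 32851 promoters of this length in the table, AP-1 in 7.81% and GAS in 8.30%. A match describes letters and is no evidence of binding, and a missing match says only that the letters are not in the window. The 300-base windows of Ccl6 and Ccl9 shared a stretch of 74 aligned columns, of which 59 (79.7%) were identical.

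Library totals lay between 52378101 and 64403177 counts, with 18383 to 19781 genes detected per library. Values per gene are CPM (counts scaled to a common library size), adjusted for library composition by the TMM method, and the error is the SD over 4 libraries. Since PCR reads without molecular identifiers are not independent molecules, the low counts below are less precise than counting error alone would give. LTβR-Ig replicate 2 (score -130) and control replicate 3 (score 79) had the most extreme scores on the first principal component of log2 CPM, with the other libraries between -16 and 33. This component held 18.9% of the variance. Markers of LEPR+ stroma were at a summed 24000 to 30760 CPM in control and 26570 to 34360 CPM in LTβR-Ig libraries, with Lepr at 4305 ± 45.9 and 3907 ± 554 CPM. Cxcl12, at 16380 ± 2252 and 19070 ± 2210 CPM, makes up most of that sum. Of the 8 stroma markers, 2 had groups that did not overlap and an unadjusted p under 0.05 in edgeR, both lower with LTβR-Ig. Of all genes tested, 2.53% had groups without overlap and 2.93% such a p in this direction. Kitl, which encodes stem cell factor, was at 1804 ± 107.5 and 1206 ± 133 CPM (log2 fold change -0.58, edgeR adjusted p = 0.125), and Pdgfra at 427 ± 23.6 and 348 ± 41.3 CPM (log2 fold change -0.29, edgeR adjusted p = 0.649). Their part in the values of Ccl2, Ccl7 and Ccl19 was not tested.

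In LEPR+ cells of control mice the monocyte-attracting chemokines Ccl2 and Ccl7 had the highest mean levels of the members per kilobase of annotated exon. Per kilobase of the longest transcript, Ccl6 stood between Ccl2 and Ccl7. The values of Ccl2 and Ccl7 in the LTβR-Ig libraries all lay under those of the controls. Ccl2 encodes MCP-1, the main ligand of CCR2, the receptor by which monocytes leave the marrow. It was at 88.6, 127, 132 and 140.5 CPM in control replicates 1 to 4 and at 52.4, 58.2, 62.9 and 40.6 CPM in LTβR-Ig replicates 1 to 4. The lowest control library, replicate 1, lay above the highest LTβR-Ig library, replicate 3, so the groups did not overlap. The means were 122 ± 22.97 and 53.5 ± 9.63 CPM (SD, n = 4 each), a 2.28-fold lower level with LTβR-Ig. Its log2 fold change was -1.19 (SE 0.19, 95% interval -1.61 to -0.77, edgeR adjusted p = 0.0865), which did not pass the threshold of 0.05 over all genes tested. In bulk samples fewer cells of a type and less RNA per cell cannot be told apart.

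Ccl7 encodes MCP-3, another CCR2 ligand, which also binds CCR1 and CCR3. It was at 27.7, 41.7, 29.8 and 37.2 CPM in control replicates 1 to 4 and at 7.31, 13.1, 8.92 and 7.57 CPM in LTβR-Ig replicates 1 to 4. Every LTβR-Ig library lay under every control library, and the highest LTβR-Ig library, replicate 2, was below the lowest control library, replicate 1. The means were 34.1 ± 6.48 and 9.21 ± 2.66 CPM (SD, n = 4 each), a 3.70-fold lower level. The log2 fold change was -1.89 (SE 0.25, 95% interval -2.46 to -1.32, edgeR adjusted p = 0.0610), the 10th smallest p of the table, and it also missed the threshold.

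Ccl8 encodes MCP-2, and its values had another pattern from those of its neighbours. It was at 2.40, 0.260, 2.41 and 1.60 CPM in control replicates 1 to 4 and at 0, 0.981, 2.19 and 2.55 CPM in LTβR-Ig replicates 1 to 4. Low libraries occurred in both groups, control replicate 2 with 17 counts and LTβR-Ig replicate 1 with 0, and the groups overlapped over their whole range. The log2 fold change, -0.22, had a 95% interval of -3.22 to 2.78 (SE 1.32, edgeR adjusted p = 1.00), so a difference as large as that of Ccl7 in either direction was not detectable. Among 1879 genes with a mean of 50 to 150 counts, the range of Ccl8, 42.8% had 0 counts in at least 1 library, against 0.378% of 5560 genes with a mean of 1000 to 5000 counts.

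Summed over Ccl2, Ccl7 and Ccl8, the monocyte-attracting members were at 118.7 to 179.3 CPM in control and 50.7 to 74.0 CPM in LTβR-Ig libraries, again without overlap. The ratio of Ccl7 to Ccl2 within each library was compared after their values had been seen. This ratio of CPM values, not corrected for length, was 0.313, 0.328, 0.226 and 0.265 in control replicates 1 to 4 and 0.140, 0.225, 0.142 and 0.187 in LTβR-Ig replicates 1 to 4. The groups lay next to each other, with LTβR-Ig replicate 2 just under control replicate 3. The mean ratio was 0.283 ± 0.0463 with HEL-Ig and 0.173 ± 0.0405 with LTβR-Ig (SD, n = 4 each). By an exact two-sided permutation test p was 0.0286, the smallest that 4 against 4 libraries allow, and 0.0571 after adjustment over the 2 ratios compared.

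**Figure D1:**
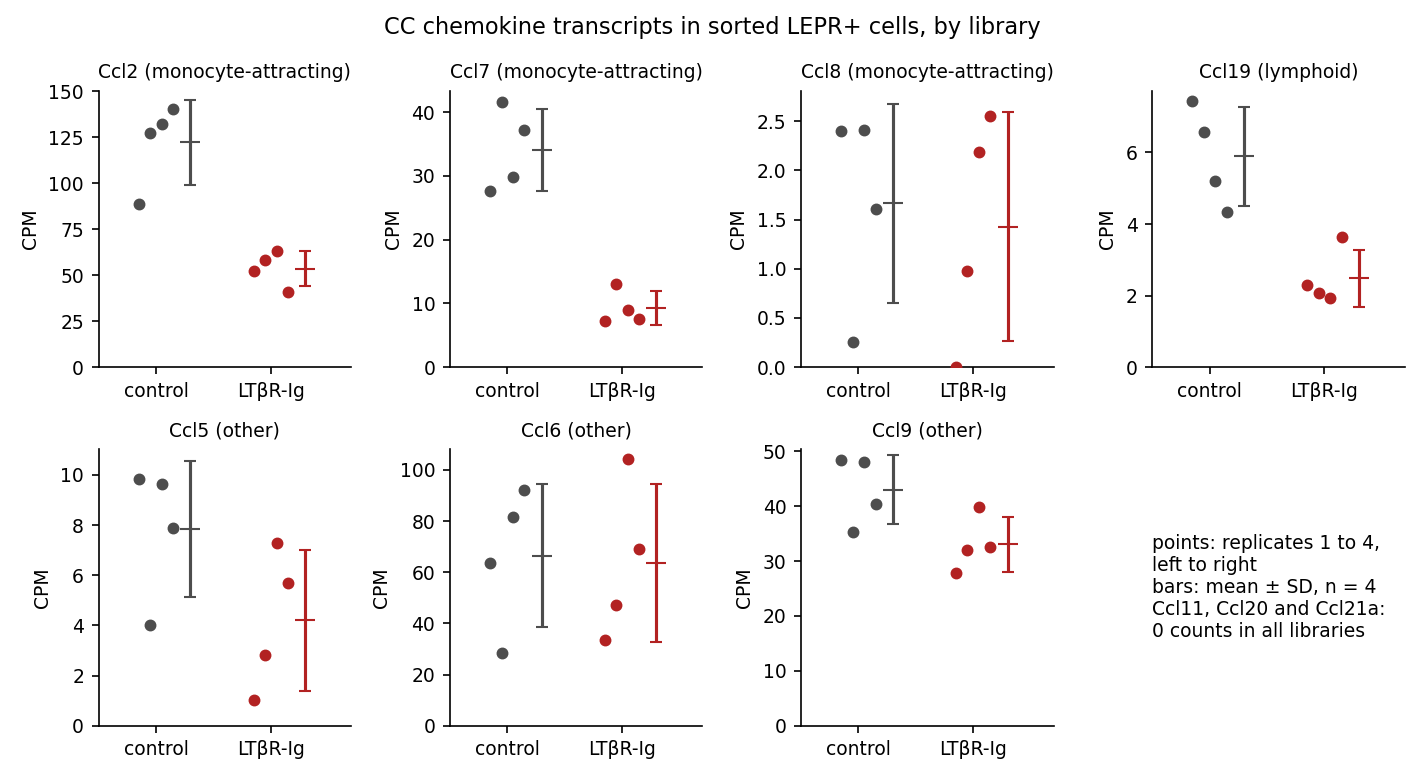
TMM-scaled CPM of the 7 members with counts, one panel per gene with its own axis from 0, points for replicates 1 to 4 of each group from left to right, and bars for the mean ± SD of 4 libraries. Ccl2, Ccl7 and Ccl19 show groups that do not overlap, while Ccl8, Ccl5, Ccl6 and Ccl9 overlap.

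Of the lymphoid members, only Ccl19 was detected. Ccl19 encodes a ligand of CCR7, the receptor that brings naive T cells and dendritic cells to lymphoid tissue. It was at 7.44, 6.56, 5.21 and 4.33 CPM in control replicates 1 to 4 and at 2.29, 2.08, 1.92 and 3.64 CPM in LTβR-Ig replicates 1 to 4. The groups did not overlap, although LTβR-Ig replicate 4 came near control replicate 4. The means were 5.89 ± 1.39 and 2.48 ± 0.786 CPM (SD, n = 4 each), a 2.37-fold lower level. The log2 fold change was -1.25 (SE 0.39, 95% interval -2.13 to -0.36) with an unadjusted p of 0.0109 and an edgeR adjusted p of 0.523.

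The count of Ccl19 is uncertain, because 423 of the 940 stretches of 76 bases in its transcripts (45.0%) also occur in Ccl19-ps1, Ccl19-ps3, Gm12407 or Gm2564, copies of the gene on chromosome 4. How the authors' counting assigned reads that fit more than 1 of them is not given in the sources used here. Gm12407 had 277, 334, 409 and 246 counts in control replicates 1 to 4 and 129, 144, 80 and 61 in LTβR-Ig replicates 1 to 4. Ccl19-ps1 had 191, 392, 354 and 277 counts in control and 74, 44, 91 and 58 in LTβR-Ig replicates 1 to 4. Both copies were thus lower in every LTβR-Ig library, with log2 fold changes of -1.50 (SE 0.44) and -2.07 (SE 0.46) and edgeR adjusted p-values of 0.473 and 0.230. Ccl19-ps3 had at most 46 counts and Gm2564 at most 29 in any library.

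With the 4 copies added to Ccl19, which was chosen after seeing the data, the sum was 973, 1202, 1118 and 777 counts in control replicates 1 to 4 and 357, 311, 280 and 306 counts in LTβR-Ig replicates 1 to 4. The means were 16.8 ± 2.97 and 5.64 ± 0.471 CPM (SD, n = 4 each). The LTβR-Ig libraries lay closer together than for Ccl19 alone, and all of them lay far under the controls. The summed log2 fold change was -1.57 (SE 0.23, 95% interval -2.09 to -1.06, edgeR adjusted p = 0.0666), which did not pass the threshold either.

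**Figure D2:**
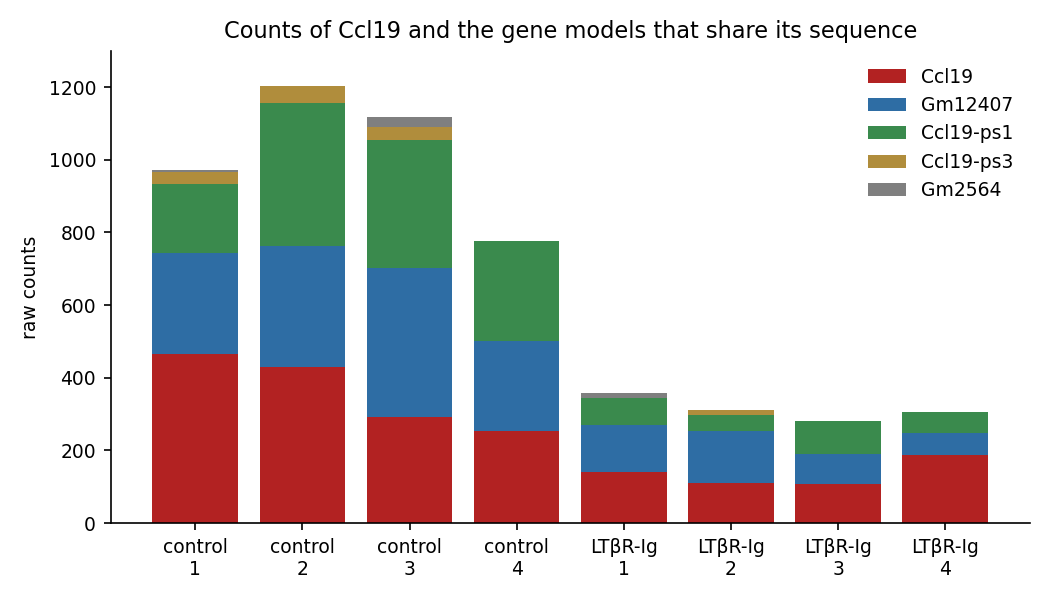
Raw counts of Ccl19 and of the 4 gene models that share its sequence, stacked, for each of the 8 libraries. The control stacks reach 777 to 1202 counts and the LTβR-Ig stacks 280 to 357 counts.

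Ccl21a, which encodes the other ligand of CCR7, and Ccl20, the ligand of CCR6, had 0 counts in each library. A count of 0 allows up to 3 counts per library, which is 0.0458 to 0.0584 CPM, for counting error only. Of the 76-base stretches of Ccl21a, 60.9% also occur in Ccl21b, Gm10591, Gm13304 or Gm21541, and these were at 0 counts as well. Neither difference nor direction can be given for these members.

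The other members with counts, Ccl5, Ccl6 and Ccl9, overlapped between the groups. Ccl5 encodes RANTES, a ligand of CCR1 and CCR3 known from T cells, NK cells and platelets. It was at 9.84, 4.00, 9.65 and 7.90 CPM in control replicates 1 to 4 and at 1.01, 2.81, 7.28 and 5.70 CPM in LTβR-Ig replicates 1 to 4. Only LTβR-Ig replicates 1 and 2 lay under the lowest control library. The means were 7.85 ± 2.71 and 4.20 ± 2.82 CPM (SD, n = 4 each), and the log2 fold change, -0.90, had an interval from -2.24 to 0.44 at 95% (SE 0.59, edgeR adjusted p = 0.962). Without each library in turn the log2 fold change lay between -1.30, with LTβR-Ig replicate 3 left out, and -0.57, with replicate 1 of that group left out. Markers of T and NK cells summed to 41.2 to 105 CPM in control and 35.0 to 118 CPM in LTβR-Ig libraries. Most of that sum was Nkg7, at 61.4 ± 28.3 and 52.7 ± 29.5 CPM (SD, n = 4 each). Only 5 of 10 markers had enough counts for the test, and Klrb1c was at 0 in all libraries. Megakaryocyte and platelet markers, of which 6 of 6 were tested, summed to 545 to 2349 and 810 to 3339 CPM, and the part of either cell type in the Ccl5 values was not tested.

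Ccl6, a CCR1 ligand of mouse macrophages and other myeloid cells, was at 63.6, 28.6, 81.5 and 92.3 CPM in control replicates 1 to 4 and at 33.7, 47.1, 104 and 69.0 CPM in LTβR-Ig replicates 1 to 4. Low and high libraries occurred in both groups, with control replicate 2 the lowest of all and LTβR-Ig replicate 3 the highest. The means of 66.5 ± 27.9 and 63.5 ± 30.9 CPM (SD, n = 4 each) were near one another, and the log2 fold change, -0.07, had a 95% interval of -1.02 to 0.89 (SE 0.42, edgeR adjusted p = 1.00). Monocyte and macrophage markers, of which 14 of 14 were tested, summed to 1057 to 2514 CPM in control and 1189 to 3007 CPM in LTβR-Ig libraries. The lowest and highest libraries of that sum were those of Ccl6, and the part of such cells in the Ccl6 values was not tested.

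Ccl6 overlaps E230016K23Rik on the other strand, and the strand setting of the counting is not given in the sources used here. E230016K23Rik had 321, 85, 156 and 22 counts in control replicates 1 to 4 and 0 in each LTβR-Ig library (edgeR adjusted p = 0.198). These counts are few beside the 1871 to 5918 counts of Ccl6 per library. Of the other members, Ccl2 overlaps Gm17268, at 0 counts in all libraries, and Ccl19 and Ccl21a overlap 4930578G10Rik, with 17 counts in control replicate 1 and 0 elsewhere.

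Ccl9 encodes MIP-1γ, a CCR1 ligand that also acts on osteoclasts and their precursors. It was at 48.4, 35.3, 48.1 and 40.5 CPM in control replicates 1 to 4 and at 27.9, 32.1, 39.9 and 32.5 CPM in LTβR-Ig replicates 1 to 4. LTβR-Ig replicates 1, 2 and 4 lay under the lowest control library and replicate 3 lay within the control range. The means were 43.1 ± 6.31 and 33.1 ± 4.99 CPM (SD, n = 4 each), and the log2 fold change was -0.38 (SE 0.17, 95% interval -0.76 to 0.00) with an unadjusted p of 0.0518 and an edgeR adjusted p of 0.789. The ratio of Ccl6 to Ccl9 was 1.53 ± 0.621 with HEL-Ig and 1.86 ± 0.638 with LTβR-Ig (SD, n = 4 each). An exact two-sided permutation gave 0.514 for this ratio, and the value adjusted over the same 2 ratios was also p = 0.514.

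Ccl11 encodes eotaxin, the eosinophil-attracting ligand of CCR3, and had 0 counts in every library, although it lies between Ccl7 and Ccl8. Markers of eosinophils, basophils and mast cells were present, at 290.0 to 931.5 CPM in control and 62.4 to 1473 CPM in LTβR-Ig libraries.

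None of the 7 members tested passed an adjusted p of 0.05 in edgeR's quasi-likelihood test, which 6 of 16045 genes (0.0374%) did. At an unadjusted p under 0.05, 3 members were lower with LTβR-Ig (Ccl2, Ccl7 and Ccl19) and 0 were higher, where 2.93% of all genes tested were lower and 3.39% higher. The same 3 members were those with groups that did not overlap, all lower with LTβR-Ig, which held for 2.53% of genes. The median log2 fold change of the 7 members was -0.90, beside -0.00 over all genes, of which 50.3% were below 0. The members were chosen with earlier results of these data known, so these counts describe them and add no independent support.

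The call for Ccl2 and Ccl7 depended on the test. DESeq2's Wald test called both (adjusted p = 8.55e-06 and 9.83e-09), with 0.697% of 15931 genes called lower. Limma-voom with sample weights called Ccl7 (adjusted p = 0.0439) and not Ccl2 (adjusted p = 0.0875), with 0.0873% of genes called lower. In edgeR with a stricter filter, which left 10958 genes, both passed (adjusted p = 0.0402 and 0.0267), with 0.155% of genes called lower. Ccl19 passed in none of these, with a DESeq2 adjusted p of 0.116, and the stricter filter removed it. Without control replicate 3 and LTβR-Ig replicate 2, which had the extreme scores, the log2 fold changes were -1.19 for Ccl2, -2.16 for Ccl7, -1.23 for Ccl19, -0.63 for Ccl5 and -0.31 for Ccl9, and none of these members passed in edgeR.

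**Figure D3:**
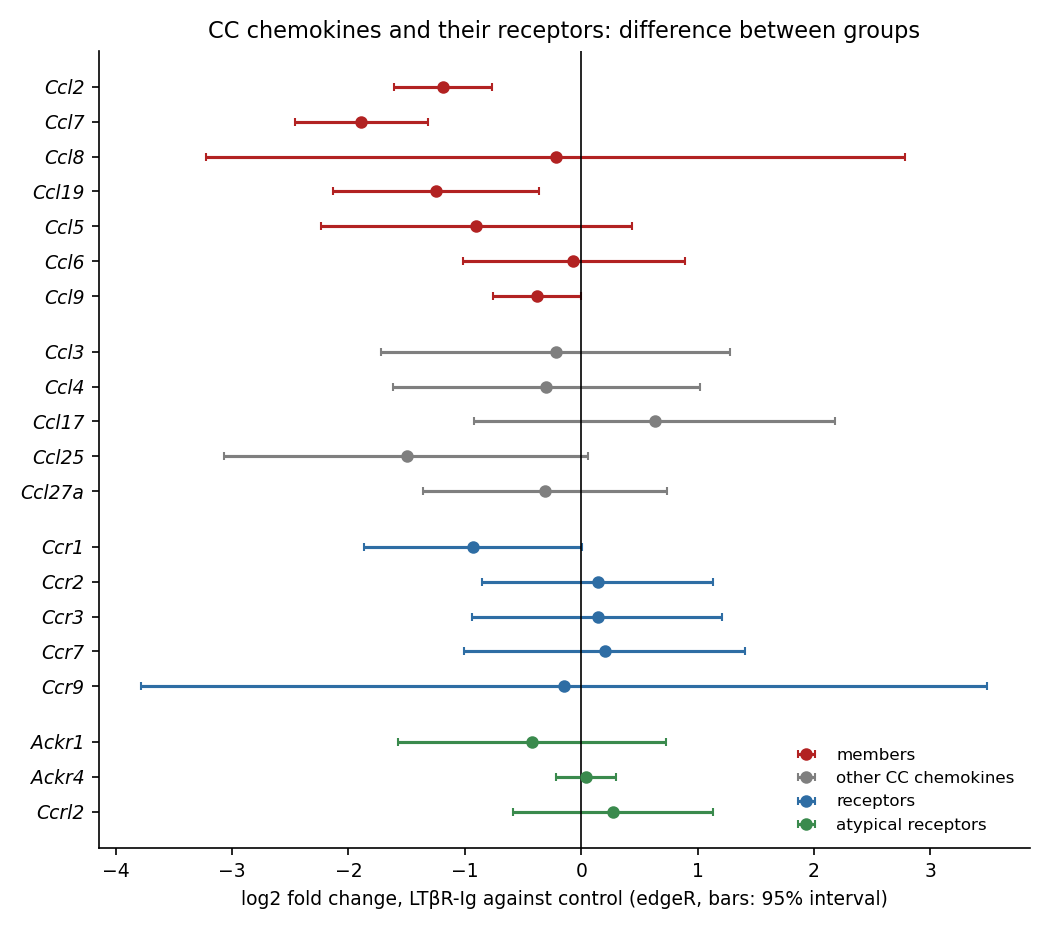
Log2 fold change of LTβR-Ig against control from edgeR for the 7 members tested, the other CC chemokines, the CC chemokine receptors and the atypical receptors that the text names, with bars for the 95% interval and the vertical line at no difference. The intervals of Ccl2, Ccl7 and Ccl19 lie left of 0, and that of Ackr4 is the narrowest of the receptors, from -0.22 to 0.30.

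Levels of different genes were set side by side per kilobase of annotated exon. In control libraries the order was Ccl2 (107 ± 20.2 CPM per kb), Ccl7 (42.6 ± 8.09), Ccl6 (37.0 ± 15.6), Ccl9 (14.1 ± 2.07), Ccl5 (8.17 ± 2.82), Ccl19 (6.79 ± 1.60) and Ccl8 (3.26 ± 1.98). Of these neighbours in order, Ccl7 and Ccl6 overlapped in their range over libraries, as did Ccl5 and Ccl19, and each other step was free of overlap. In LTβR-Ig libraries the order was Ccl2 (47.0 ± 8.47 CPM per kb), Ccl6 (35.4 ± 17.2), Ccl7 (11.5 ± 3.32), Ccl9 (10.9 ± 1.64), Ccl5 (4.38 ± 2.94), Ccl19 (2.86 ± 0.907) and Ccl8 (2.80 ± 2.28). There the ranges of Ccl2 and Ccl6 overlapped, as did those of Ccl7 and Ccl9, of Ccl5 and Ccl19 and of Ccl19 and Ccl8. By this length Ccl7 stood above Ccl6 in the control order and below it in the LTβR-Ig order, where their ranges were free of overlap. With the longest transcript as the length, Ccl6 (46.2 CPM per kb) stood above Ccl7 (42.6) in control libraries too, so this change of order depended on the length. Ccl5 was then at 11.8 CPM per kb in control libraries.

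The members differed in which genes their profiles resembled. Likeness was measured over 12370 genes with a mean of at least 1 CPM as the root mean square difference of log2 CPM over the 8 libraries, each profile centred on its own mean. Values for Ccl2 were nearest those of Fgf1 (0.23), Nfkbie (0.25) and Calcrl (0.26), against 0.64 for a profile with no variation. Ccl7 was nearest to Nfkbie (0.26), Edar (0.39) and Ccl2 (0.44), against 0.99 for no variation. Ccl19 was nearest to Neurl1b (0.21), Slco1a4 (0.22) and Serpina3g (0.25), against 0.71 for no variation. Fgf1, Calcrl, Nfkbie, Edar, Neurl1b, Slco1a4 and Serpina3g had log2 fold changes between -1.52 and -0.90, so the difference between the groups is part of what makes these profiles alike. Serpina3g has close paralogs, and its count is uncertain.

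Ccl6 had another kind of neighbour. It was nearest to Ncf1 (0.15), a subunit of the phagocyte NADPH oxidase, Napsa (0.16), an aspartic protease, and Lyz2 (0.17), the lysozyme of myeloid cells, against 0.63 for no variation. Lyz2 was at 1178, 549, 1283 and 1377 CPM in control replicates 1 to 4 and at 567, 971, 1592 and 1055 CPM in LTβR-Ig replicates 1 to 4, lowest in the same control library as Ccl6 and highest in the same LTβR-Ig library. The summed monocyte and macrophage markers, which hold Lyz2, had a distance of 0.21 from Ccl6. Also under 0.63 were the sums of neutrophil (0.33), erythroid (0.33), T and NK cell (0.35) and endothelial markers (0.44). So were those of dendritic cell (0.45), osteoblast (0.53) and lymphatic endothelial markers (0.58). The sum of megakaryocyte and platelet markers was at 0.63, and the others lay between 0.76 (LEPR+ stroma) and 1.46 (B and plasma cell). For Ccl2, Ccl7 and Ccl19 the nearest marker sum, that of dendritic cells, was at 0.63, 0.98 and 0.67, close to the values for no variation. Marker sums were compared with the members after their values had been seen.

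Of the remaining members, Ccl9 was nearest to Kctd3 (0.09), Tmx4 (0.09) and Rrp36 (0.11), against 0.27 for no variation. Ccl5 was nearest to Wdr47 (0.36), Ass1 (0.44) and Mrgpra2b (0.45), against 1.03. Ccl8 had no close neighbour, with 0.78 for Apoc2, 0.84 for Cldn5 and 0.85 for Haao, against 2.05. The distance between Ccl2 and Ccl9, both on chromosome 11, was 0.51, and that between the neighbours Ccl6 and Ccl9 was 0.52.

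**Figure D4:**
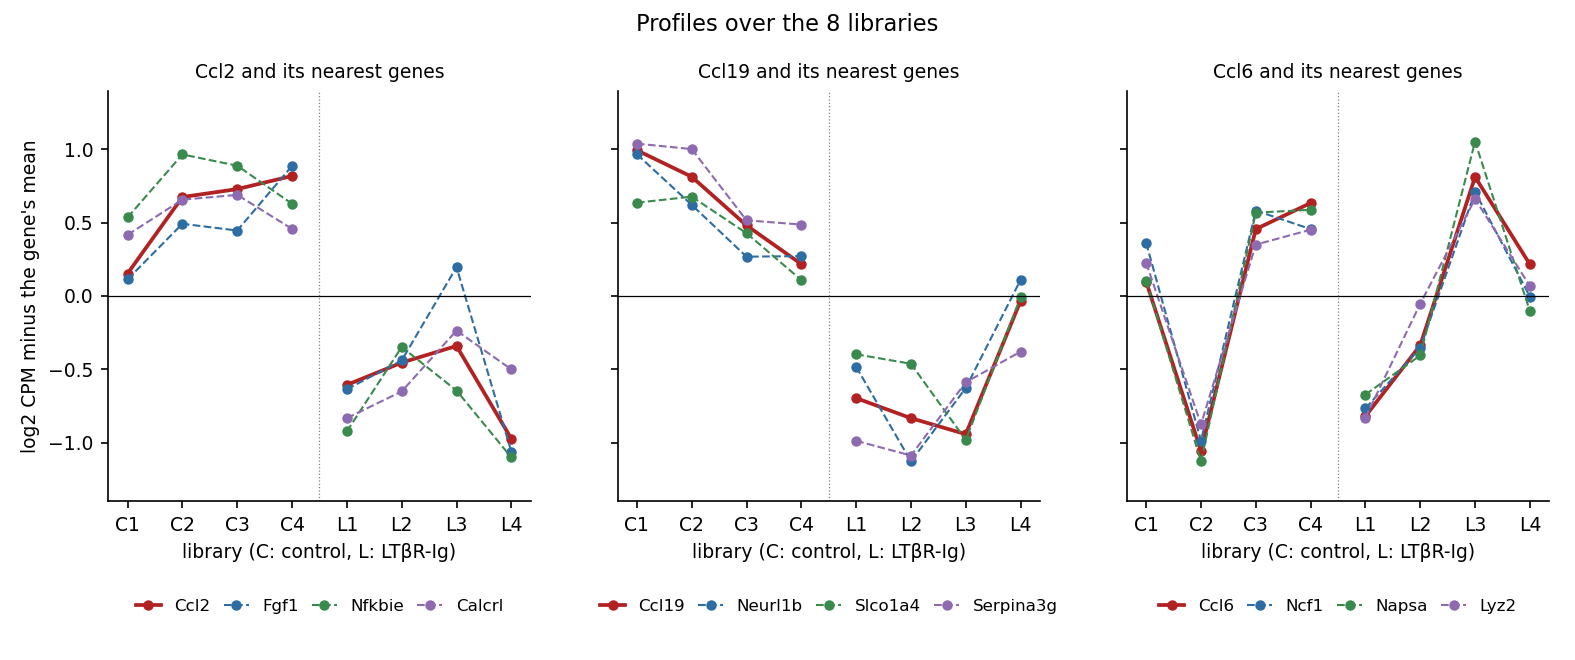
Log2 CPM minus the gene's mean over 8 libraries for Ccl2, Ccl19 and Ccl6 (solid lines) and the 3 genes nearest to each (dashed), with control replicates left and LTβR-Ig replicates right of the dotted line. Ccl2 and Ccl19 lie above 0 in the controls and below it with LTβR-Ig, while Ccl6 and its neighbours vary within both groups, and the lines only join the points of a gene.

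Of 14 other CC chemokines listed, 13 were in the table and 5 had enough counts to be tested. None was lower or higher at an unadjusted p under 0.05, and their median log2 fold change was -0.30. Ccl25, a ligand of CCR9 known from thymus and gut, had the lowest value. It was at 6.66, 3.31, 11.6 and 6.81 CPM in control replicates 1 to 4 and at 3.40, 4.94, 0.741 and 0.915 CPM in LTβR-Ig replicates 1 to 4, with overlapping groups. Its log2 fold change was -1.50 (SE 0.69, 95% interval -3.07 to 0.06, edgeR adjusted p = 0.802). Ccl3 and Ccl4, which encode inflammatory chemokines of macrophages, had log2 fold changes of -0.22 and -0.30, Ccl27a, whose near copies may share its reads, had -0.31 and Ccl17 0.63, and the interval of each held 0.

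Of 10 CC chemokine receptors, 6 were tested and none had an unadjusted p under 0.05, with a median log2 fold change of 0.14. Ccr2, the receptor for CCL2 and CCL7, averaged 24.0 ± 3.99 CPM with HEL-Ig and 26.4 ± 17.0 CPM with LTβR-Ig (SD, n = 4 each). Its log2 fold change was 0.14. Ccr3 had 0.14, Ccr7 0.20 and Ccr9 -0.15. Ccr1, which binds CCL5, CCL6, CCL7 and CCL9, was at 16.3 ± 9.38 and 8.53 ± 1.57 CPM (SD, n = 4 each), and its log2 fold change was -0.93, with a 95% interval of -1.87 to 0.01 and an edgeR adjusted p of 0.789. Ccr4 and Ccr6 had 0 counts in all libraries.

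Of the 4 atypical receptors, which bind chemokines without G protein signalling, 3 were tested and none had an unadjusted p under 0.05. Ackr4, which captures CCL19 and CCL21, averaged 335 ± 33.3 CPM with HEL-Ig and 344 ± 38.5 CPM with LTβR-Ig (SD, n = 4 each). Its log2 fold change was 0.04 (SE 0.11, 95% interval -0.22 to 0.30). Ackr1 had -0.42 and Ccrl2 0.27, with overlapping groups.

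Of 13 listed genes of the pathway from the lymphotoxin β receptor to NF-κB, all 13 were tested and none passed the adjusted threshold. At an unadjusted edgeR p under 0.05 there were 5 lower and 1 higher, beside 2.93% and 3.39% of all genes. The list does not separate genes by whether they pass on or restrain the signal. The median log2 fold change was -0.26. Ltbr, the receptor gene, was the higher one (log2 fold change 0.36, edgeR adjusted p = 0.751). The lower 5 were Traf2 (-0.64), Birc3 (-0.71), Map3k14 (-0.89), Nfkb2 (-0.83) and Relb (-1.15), of which Map3k14, Nfkb2 and Relb had groups that did not overlap, as 2.53% of all genes did in this direction. Relb, a subunit of the non-canonical NF-κB dimer, averaged 18.6 ± 4.69 CPM with HEL-Ig and 8.39 ± 1.33 CPM with LTβR-Ig (SD, n = 4 each, edgeR adjusted p = 0.226). Nfkb1, Rela, Rel, Ikbkb, Chuk, Birc2 and Traf3 had log2 fold changes between -0.91 and 0.18 and intervals that held 0.

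Markers of 13 cell types were summed per library and compared between the groups, which does not measure how pure the sort was. The exact two-sided permutation p lay between 0.0571, for Schwann and nerve markers, and 0.914, for monocyte and macrophage markers. Adjusted over the 13 lists they were 0.743 and 0.914, and the smallest p that 4 against 4 libraries allow is 0.0286, so that a single list could not have passed after adjustment. Each sum is carried by its most abundant genes. Erythroid markers summed to 15570 to 47940 CPM in control and 15650 to 36600 CPM in LTβR-Ig libraries, of the size of the LEPR+ stroma sums. Osteoblast markers were at 11710 to 25310 and 12690 to 21190 CPM, and neutrophil markers at 3990 to 9377 and 4536 to 9048 CPM. Transcripts of other cells were thus present in the sorted libraries of both groups. Of 101 single markers 90 were tested, and none passed an edgeR adjusted p of 0.05. At an unadjusted p under 0.05, 4 of the 90 were lower and 3 higher, near the 2.93% and 3.39% of all genes tested. Beside Kitl and Pdgfra, the lower ones were the neutrophil markers Mmp8, at 62.4 ± 23.3 and 30.1 ± 9.41 CPM, and Mmp9, at 42.3 ± 12.5 and 22.7 ± 10.1 CPM. The higher ones were the osteoblast markers Alpl, at 276 ± 76.6 and 534 ± 93.4 CPM without overlap of the groups, and Sp7, at 18.9 ± 6.49 and 36.5 ± 10.2 CPM, and the nerve marker S100b, at 137.5 ± 30.4 and 236 ± 60.3 CPM. Beside the lower values of Ccl2, Ccl7 and Ccl19, dendritic cell markers, of which 5 of 6 were tested, summed to 27.1 to 42.7 CPM in control and 16.7 to 44.0 CPM in LTβR-Ig libraries. Lymphatic endothelial markers, of which 2 of 4 were tested, summed to 3.60 to 24.2 and 3.13 to 27.7 CPM. The tested Flt4 and Pdpn had log2 fold changes of 0.24 and 0.63. In control replicates 1 to 4 Prox1 had 41, 91, 0 and 3 counts and Lyve1 77, 0, 0 and 145. Both had 0 counts in each LTβR-Ig library. The part of other cell types in the values of Ccl2, Ccl7 and Ccl19 was not tested.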

How the data were processed

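Polyadenylated RNA of sorted LEPR+ cells was measured in 4 control and 4 LTβR-Ig libraries, grouped and numbered by their titles. The values the authors deposited are raw counts per gene in 1 matrix, not normalized, and HISAT2, HTSeq and the build mm10 are named per the submitters' processing notes. Not given in the sources used here are their versions, the strand setting and the annotation release. Gene symbols were assigned from GENCODE M21 by identifier without the version suffix, which matched 52403 of 52636 identifiers.

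Counts were tested with edgeR 4.0.16 in R 4.3.3: TMM scaling, filterByExpr with the group (at least 10 counts, 15 in total), robust glmQLFit and the quasi-likelihood F test over all 8 libraries with no covariate. Benjamini-Hochberg adjustment of the p-values covered all 16045 genes tested, with a threshold of 0.05, and member values were read from that fit. Each standard error was taken as the absolute log2 fold change over the root of F. The procedure was also run on simulated counts, with known changes placed in more abundant genes. That run does not bear on low members such as Ccl8, and its outcome is not given here. Log2 profiles used a prior count of 2. Sequence shared with other genes was counted as identical stretches of 76 bases, the read length, in annotated transcripts.

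The alternatives tried were edgeR with upper-quartile factors or with DESeq2's size factors, the Wald test of DESeq2 1.42.0 on the filtered genes, limma-voom (limma 3.58.1) with sample weights, no filter, a stricter filter (10 counts in 4 libraries, mean 5 CPM), a block for the replicate number, and leaving out libraries. Adding the copies of Ccl19 was chosen after seeing the data. Named were all 10 members, listed pathway genes with a mean of at least 1 CPM, and the 3 genes most like each tested member. One listed receptor gene is not reported here and was left out of the list's counts. Copies, overlapping genes, marker genes and list members at 0 counts were named after their values were seen. The members and lists were chosen with earlier results of these data known.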

Additional observations from a re-analysis of the deposited data

How the results depend on the processing

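The log2 fold changes of Ccl2, Ccl7, Ccl19, Ccl5 and Ccl9 were below 0 under each alternative run. Without each library in turn they lay between -1.31 and -1.08 for Ccl2 (edgeR adjusted p = 0.0917 to 0.352), between -2.10 and -1.77 for Ccl7 (0.0570 to 0.227) and between -1.49 and -1.11 for Ccl19 (0.475 to 0.799). The sign of Ccl8 and Ccl6 did not hold. Without each library Ccl8 ranged from -0.66 to 0.20 and Ccl6 from -0.41 to 0.15. With control replicate 3 and LTβR-Ig replicate 2 both left out they were 0.16 and 0.17, and limma-voom gave 0.00 for Ccl6 and -1.59 for Ccl8, against -0.07 and -0.22 in edgeR. The number of members past the threshold was 0 in edgeR, also without each library, 2 with DESeq2's Wald test, 1 with limma-voom and 2 with the stricter filter. The number of all genes past it was 6, against 199 with DESeq2's Wald test, 17 with limma-voom, 22 with the stricter filter, and 1 without both libraries, and it ranged from 2 (without control replicate 3) to 9 (without LTβR-Ig replicate 4) without each library. The cause was not tested. The submitters' design text mentions 4 pairs without saying what a pair shares, and the main fit did not use pairs. The labels do not say whether a shared replicate number pairs the libraries. Correlations of deviations for shared numbers lay between 0 and 0.075, and such values, taken over all genes tested, cannot decide this. With the replicate block 1 gene and 0 members passed, Ccl2 had -1.19 (adjusted p = 0.360) and Ccl7 -1.91 (adjusted p = 0.207), and not every library correlated best with its own number. Ccl8 had at most 150 counts in a library, and the stricter filter removed Ccl8 and Ccl19. At 4 libraries per group no statement on Ccl11, Ccl20 and Ccl21a goes beyond the limit of 3 counts.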

Other observations

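Other CC chemokines that are known from myeloid and lymphoid cells were found at low levels among the sorted cells. Ccl4 averaged 9.40 ± 3.28 CPM with HEL-Ig and 7.64 ± 5.09 CPM with LTβR-Ig, and Ccl3 at 4.59 ± 3.15 and 3.93 ± 2.86 CPM (SD, n = 4 each). Ccl3 had its highest control value in replicate 1, at 8.96 CPM, and its highest LTβR-Ig value in replicate 3, at 8.06 CPM. Ccl17, a ligand of CCR4, was at 2.03 ± 1.55 and 3.14 ± 1.84 CPM (SD, n = 4 each), while Ccr4 itself had 0 counts.

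E230016K23Rik, the gene antisense to Ccl6, was found in 4 of 4 control libraries and in 0 of 4 LTβR-Ig libraries, with counts that spread from 22 to 321 among the controls. Its 3 nearest members in position, Ccl5, Ccl9 and Ccl6, had groups that overlapped. In each group of 4 libraries the highest and the lowest value of each tested member were also compared with the others, and 0 of 14 such pairs of member and group had a value standing apart, where chance gives about 1 in 20.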
